A study of Homo sapiens with 6 samples.

Results

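Genes that activate, conjugate or pump out foreign chemicals were followed in SH-SY5Y, a human neuroblastoma cell line that makes catecholamines and is widely used as a neuron-like model. A list of 43 such genes was taken, and all probe sets whose annotation named exactly 1 gene of the list were used. These were 95 of the 49293 probe sets tested, and they covered 38 of the 43 genes, out of 18132 genes in all. For gene-level values each gene was represented by its brightest probe set, judged by the mean of all arrays. CYP2C19, CYP2D6, UGT1A6, GSTM1 and SULT1A1 had no one-gene probe set in the table used here and were not analysed as single genes. The exposed cells received 3 µM endosulfan, an organochlorine insecticide, for 24 h, a dose stated in the labels to lie below the LC50. The other cells were labelled control, with no vehicle named in the sources used here. There were 3 endosulfan and 3 control arrays, described as biological replicates of 1 cell line. No culture, passage or day is given, so p-values measure only the spread between these arrays, which may be technical. Every level below is a log2 RMA value, the summarised and normalized brightness of a probe set, and every difference is endosulfan minus control on the log2 scale.

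Cytochrome P450 enzymes oxidise lipophilic chemicals with electrons that POR, the P450 reductase, supplies. The aryl hydrocarbon receptor AHR pairs with ARNT on DNA at a short core motif and switches on CYP1A1, CYP1A2, CYP1B1, AHRR and TIPARP, of which AHRR and TIPARP repress the receptor in return. CYP2 and CYP3 enzymes are mainly hepatic and are controlled largely by the nuclear receptors PXR and CAR. Glutathione S-transferases, UDP-glucuronosyltransferases and sulfotransferases attach polar groups, and ATP-driven ABC pumps export drugs and conjugates. In human liver, endosulfan is oxidised to endosulfan sulfate by P450 enzymes, CYP2B6 and CYP3A4 among them.

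Promoters are shown for CYP1A1, AHRR and TIPARP, genes of the AHR loop that the receptor is known to control. GSTM3 is shown because it had the smallest p of the list at gene level, and GSTP1 because it exceeded all background probe sets. Each promoter is the 250 bases before the most upstream transcription start that RefSeq lists on GRCh38.p14, read 5′ to 3′ on the gene's own strand. Capitals mark the AHR-ARNT core GCGTG, found on either strand and so also as CACGC. In GSTP1 they mark TGACNNNGC, the core of the antioxidant response element, also searched on both strands. The windows are chr15:74725529-74725778 on the minus strand for CYP1A1, chr5:321464-321713 on the plus strand for AHRR, chr3:156674340-156674589 on the plus strand for TIPARP, chr1:109741039-109741288 on the minus strand for GSTM3 and chr11:67583562-67583811 on the plus strand for GSTP1.
CYP1A1: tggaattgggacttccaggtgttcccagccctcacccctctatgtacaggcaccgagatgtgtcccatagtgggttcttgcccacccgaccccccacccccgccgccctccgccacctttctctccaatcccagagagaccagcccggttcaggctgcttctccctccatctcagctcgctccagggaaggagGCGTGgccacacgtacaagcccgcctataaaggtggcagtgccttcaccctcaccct
AHRR: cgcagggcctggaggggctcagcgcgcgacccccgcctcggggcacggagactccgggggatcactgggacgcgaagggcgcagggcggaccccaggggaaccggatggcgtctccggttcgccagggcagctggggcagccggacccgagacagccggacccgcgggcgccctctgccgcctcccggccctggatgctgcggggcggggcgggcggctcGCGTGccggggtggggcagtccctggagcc
TIPARP: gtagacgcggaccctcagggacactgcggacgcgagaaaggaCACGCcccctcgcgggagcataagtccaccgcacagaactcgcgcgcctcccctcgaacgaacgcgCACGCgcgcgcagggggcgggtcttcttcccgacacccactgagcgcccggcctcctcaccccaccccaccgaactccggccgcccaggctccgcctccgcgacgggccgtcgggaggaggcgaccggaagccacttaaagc
GSTM3: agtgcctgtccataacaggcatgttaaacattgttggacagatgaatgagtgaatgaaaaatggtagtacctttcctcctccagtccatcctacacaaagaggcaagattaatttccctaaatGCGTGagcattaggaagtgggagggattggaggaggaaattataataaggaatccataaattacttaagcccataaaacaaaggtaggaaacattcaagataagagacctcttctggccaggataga
GSTP1: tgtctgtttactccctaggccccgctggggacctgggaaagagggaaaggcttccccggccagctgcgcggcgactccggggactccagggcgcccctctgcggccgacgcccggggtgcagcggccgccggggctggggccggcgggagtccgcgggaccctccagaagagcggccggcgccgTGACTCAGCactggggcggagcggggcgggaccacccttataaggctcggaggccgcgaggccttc
The core GCGTG was present once in the CYP1A1, AHRR and GSTM3 windows and at 2 places in the TIPARP window. No match was found for CYP1A2 and CYP1B1, the other AHR targets named above, whose promoters are not shown. Every shown window holds the motif marked in it, so the windows do not stand for the list as a whole. Of all 35116 RefSeq promoters of this length, 32.2% held it, as did 14 of the 47 promoters of list genes (29.8%), which belong to 33 genes. TGACNNNGC was in 10.9% of all promoters and in 9 of the 47 promoters of list genes (19.1%). These 9 were promoters of ARNT, CYP2B6, EPHX1, UGT1A6, GSTA4, GSTM1, GSTO1, GSTP1 and ABCC4. A letter match is a description of the window and not a site that was shown to be bound.

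Array medians lay from 4.89 to 4.94, and no pair held identical values. Upper quartiles were at 6.58, 6.67 and 6.62 in endosulfan and 6.74, 6.67 and 6.67 in control arrays, with every endosulfan array lower (two-sided exact permutation p = 0.1, the smallest possible). Defining markers of the line fitted its label: HAND2 averaged 13.18 in endosulfan and 13.19 in control arrays, and DBH, the noradrenaline-forming enzyme, 12.16 and 12.02. In the marker list of the line 9 of 10 genes were measured, 3 of them lower at an unadjusted p below 0.05 with limma, as were 10.5% of all genes. These 3, chosen after their values were seen, were ISL1 at -1.34, STMN2 at -1.05 and GATA3 at -0.35 (differences), and the first pair differed by more than any gene of the list. Of 10 liver markers ALB was at 3.45 in endosulfan and 3.41 in control arrays, and the list ran from 3.43 to 6.10 in endosulfan and from 3.34 to 5.95 in control means. The arrays stood apart on their technical probe sets. Poly-A spike-ins, bacterial transcripts added before labelling, had means of 7.81, 7.73 and 8.80 in endosulfan 1, 2 and 3, and of 6.13, 7.73 and 5.84 in control 1, 2 and 3. The two-sided exact permutation p was 0.2, where 3 arrays against 3 cannot go below 0.1. Control 2 was level with endosulfan 1 and endosulfan 2. Hybridisation controls, labelled transcripts added just before hybridisation, were at 9.84, 9.78 and 10.16 in endosulfan and 9.12, 9.57 and 8.94 in control arrays, groups that did not overlap (two-sided exact permutation p = 0.1, the smallest possible). The GAPDH probe sets, whose 3′ minus 5′ difference is a sign of RNA quality, gave 0.89, 0.82 and 0.82 in endosulfan and 0.81, 0.74 and 0.70 in control arrays, again with no overlap (two-sided exact permutation p = 0.1). Of the 23 background probe sets, 21 had a higher endosulfan than control mean, and their differences lay between -0.13 and 0.10. The part of upper quartiles, markers of the line, spike-in, hybridisation control, GAPDH and background levels in the differences that follow was not tested. At gene level 60.2% of all genes had a difference above 0, with a median of 0.05.

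No gene of the list passed the test. In bulk RNA fewer cells of a type and less RNA per cell cannot be told apart. Of the 95 probe sets 0 were past a limma and Benjamini-Hochberg adjusted p below 0.05, over all 49293 probe sets, of which 0.00811% were called. At gene level 0 of 38 passed, where 0.00552% of all genes were called, and the smallest adjusted p was 0.196. At an unadjusted p below 0.05 there were 6 probe sets on the higher and 11 on the lower side with limma, where 6.3% and 9.21% of all probe sets were called in those directions. By gene there was 1 on the higher side, POR, and 5 on the lower side, GSTM3, GSTK1, GSTA4, GSTO1 and ABCC4, against 6.64% and 10.5% of all genes. The groups did not overlap in 4 genes on the higher and 6 on the lower side, and this held for 12.4% and 10.2% of all genes. By probe set the groups were apart in 12 on the higher and 10 on the lower side, against 11.5% and 9.24% of all probe sets. The share of list members past these limits was near that of the table as a whole. The differences of the 38 genes ran from -0.91 to 0.45, with a median of 0.06.

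**Figure D1:**
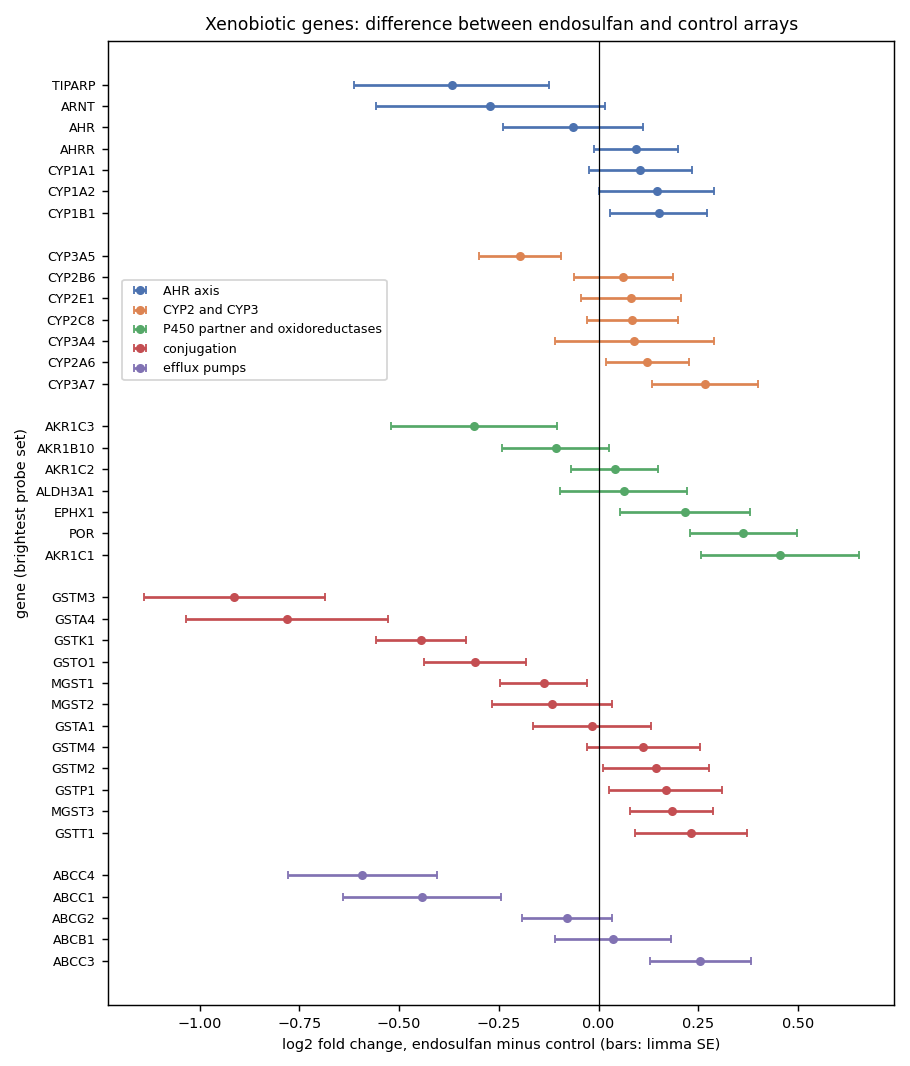
Log2 fold change (endosulfan minus control) of the 38 measured genes, 1 row a gene and 1 colour a class, with bars for the limma standard error from 3 endosulfan and 3 control arrays. The AHR and CYP genes sit within 0.37 of 0, while GSTM3 lies at -0.91, GSTA4 at -0.78 and ABCC4 at -0.59, and no gene passed the adjusted threshold.

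Baseline levels were read against the array's own background probe sets, which match no human transcript and are sorted by the number of G and C bases in their probes. Their level climbed steeply with that number, to a control mean of 10.49 for probes with 25 such bases, against 2.19 for probes with 3. Probe sequences of the list genes were not used here, so no gene could be set against its own background level, and levels of different probe sets give no order of abundance. In all 6 arrays GSTP1, MGST3 and GSTO1 exceeded every background probe set. GSTM3, GSTK1 and ABCC1 exceeded those with up to 24 such bases, and POR and CYP1A2 those with up to 23. At the other end 14 genes stayed below the background probe set with 18 such bases in all arrays. These were AHR, 6 of the 7 measured CYP2 and CYP3 genes, ALDH3A1, AKR1B10, AKR1C1, GSTM2, ABCC3, ABCC4 and ABCG2.

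**Figure D2:**
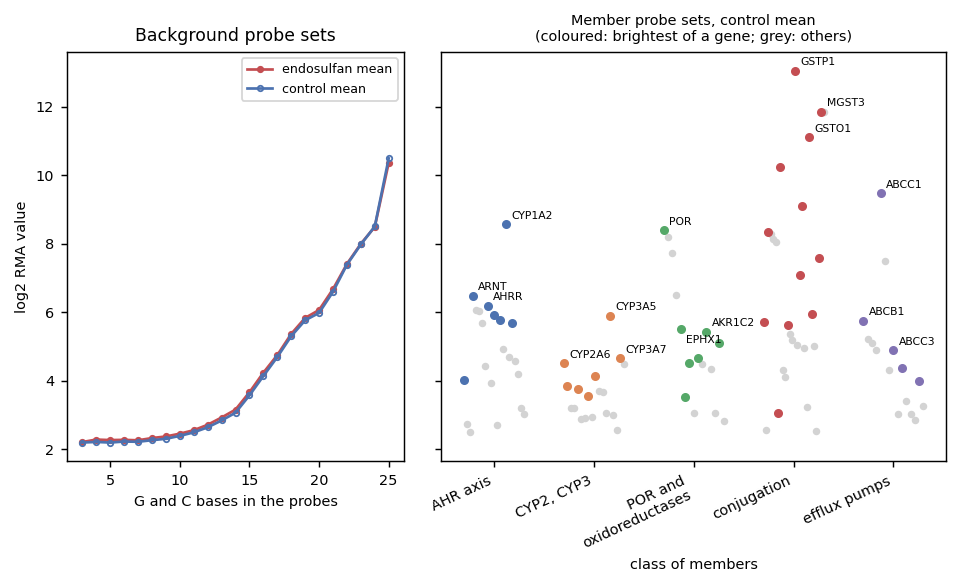
Left, mean log2 RMA value of the 23 background probe sets by the number of G and C bases in their probes, in endosulfan and control arrays. Right, control mean of all 95 probe sets by class, in colour the brightest of each gene; GSTP1, MGST3 and GSTO1 lie above the whole background curve, and no CYP2 or CYP3 probe set has a control mean above 5.89.

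In the AHR axis no gene passed and on the brightest probe sets none of the 7 genes had groups that do not overlap. Over all genes the groups were apart in 12.4% on the higher and 10.2% on the lower side. With 7 genes a count of 0 cannot be set apart from these shares. AHR, the receptor itself, was at 4.27, 3.96 and 3.65 in endosulfan 1, 2 and 3, against 3.94, 3.91 and 4.22 in control 1, 2 and 3. The groups overlapped throughout, with a difference of -0.06 ± 0.18 (limma SE), and its 2 dimmer probe sets were on the higher side, at 0.16 and 0.08, the first with groups that did not overlap.
CYP1A1, the hydrocarbon hydroxylase most used as a readout of AHR, was at 6.00, 5.77 and 5.87 in endosulfan and 5.61, 5.96 and 5.77 in control arrays. Its difference of 0.10 ± 0.13 (SE) was smaller than the spread within the control group. The dimmer probe set of CYP1A1 was on the lower side, at -0.03. CYP1B1, which oxidises oestrogens and hydrocarbons outside the liver, was at 5.66, 5.97 and 5.87 in endosulfan and 5.65, 5.61 and 5.78 in control arrays. The 5 probe sets of CYP1B1 had differences from -0.05 to 0.20, so they did not share a direction, and the groups of 1 dimmer probe set, at 0.20, did not overlap.
CYP1A2, an oxidase of caffeine and arylamines, was at 8.80, 8.56 and 8.76 in endosulfan and 8.37, 8.51 and 8.81 in control arrays on a probe set of the type that can bind other transcripts. The second probe set of CYP1A2 had a mean of 4.79 over the 6 arrays and a difference of 0.21, also with overlapping groups.
TIPARP, an ADP-ribosyltransferase that restrains AHR, was at 5.14, 5.96 and 5.54 in endosulfan and 6.31, 5.78 and 5.65 in control arrays. Endosulfan 2 lay above control 2 and control 3, and the difference was -0.37 ± 0.24 (SE). It was -0.17 without endosulfan 1 and without control 1, and -0.57 without endosulfan 2. The dimmer probe set of TIPARP was on the higher side, at 0.07. ARNT, the DNA-binding partner, was at 5.77, 6.83 and 6.02 in endosulfan and 6.85, 6.41 and 6.17 in control arrays. Its difference of -0.27 ± 0.29 (SE) was -0.05 without endosulfan 1, -0.09 without control 1, -0.18 without endosulfan 3, -0.42 without control 3 and -0.58 without endosulfan 2. The 5 probe sets of ARNT ran from -0.58 to 0.05. AHRR, the receptor's repressor, had a difference of 0.09 ± 0.10 (SE). With limma the adjusted p of the 7 genes lay between 0.454 and 0.868.

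The CYP2 and CYP3 class had 7 measured genes, 6 on the higher and 1 on the lower side, with a median of 0.09 beside 0.05 over all genes. Liver markers lay to the same side, 7 of 10 being higher and 2 of them at an unadjusted p below 0.05 with limma, beside 60.2% and 6.64% of all genes, and their part was not tested. CYP3A5, a drug oxidase also found outside the liver, was at 5.71, 5.74 and 5.63 in endosulfan and 5.90, 5.82 and 5.96 in control arrays. Every endosulfan array of CYP3A5 lay below every control array, by a difference of -0.20 ± 0.10 (SE) with a Benjamini-Hochberg adjusted p from limma of 0.358. The 2 dimmer probe sets of CYP3A5 were on the higher side, at 0.06 and 0.07.
CYP3A7, the fetal liver form, was at 5.00, 4.74 and 5.03 in endosulfan and 4.49, 4.80 and 4.69 in control arrays, where control 2 exceeded endosulfan 2. CYP2A6, the nicotine oxidase, was at 4.57, 4.65 and 4.67 in endosulfan and 4.46, 4.46 and 4.60 in control arrays, and its groups also overlapped. The CYP3A genes are close paralogs, and so are CYP2A6 and its neighbours, so their probe sets may share signal.
On their brightest probe sets CYP2B6 and CYP3A4, named above among the enzymes that oxidise endosulfan, had overlapping groups. CYP2B6 averaged 3.90 ± 0.09 in endosulfan and 3.84 ± 0.17 in control arrays (SD, n = 3 each). A dimmer probe set of CYP2B6 was at 3.44, 3.48 and 3.48 in endosulfan and 3.29, 3.29 and 3.01 in control arrays, groups that did not overlap, with a difference of 0.27 and an adjusted p from limma of 0.318 over all probe sets. CYP3A4 averaged 4.22 ± 0.26 and 4.13 ± 0.33 in those groups (SD, n = 3 each). CYP2C8 had a difference of 0.08 and CYP2E1, the ethanol-inducible form, of 0.08, with limma SEs of 0.11 and 0.13. A dimmer probe set of CYP2C8 was at 0.25 with groups that did not overlap.

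POR and the oxidoreductases had 5 of 7 genes on the higher side and a median of 0.06. POR was at 8.89, 8.58 and 8.78 in endosulfan arrays, against 8.21, 8.53 and 8.43 in control arrays. The groups did not overlap, but endosulfan 2 and control 2 were nearly level. The fold change was 1.29, with a log2 difference of 0.36 ± 0.13 (SE) and an adjusted p from limma of 0.252. All 4 probe sets of POR were on the higher side, from 0.29 to 0.44, and all are of the type that can bind other transcripts.
AKR1C1, an aldo-keto reductase that inactivates progesterone and is induced by NRF2, was at 5.11, 5.13 and 5.07 in endosulfan and 5.06, 4.66 and 4.23 in control arrays. The endosulfan arrays lay within a narrow band just above control 1, while control 3 was much lower. The difference was 0.45 ± 0.20 (SE), a fold change of 1.37, with a Benjamini-Hochberg adjusted p from limma of 0.294. Without control 3 the difference was 0.24. Its second probe set had a difference of 0.27. AKR1C2, nearly identical in sequence to AKR1C1, was at 0.04 on its brightest probe set. Of the 3 probe sets annotated to both AKR1C1 and AKR1C2, the brightest was at 5.85, 5.95 and 5.60 in endosulfan and 5.65, 5.57 and 5.33 in control arrays, and the other two had differences of 0.02 and -0.01.
AKR1C3, which forms testosterone and prostaglandin F, was at 4.94, 4.91 and 4.54 in endosulfan and 5.55, 4.86 and 4.91 in control arrays, with a difference of -0.31 that was -0.09 without control 1. The dimmer probe set of AKR1C3 was on the higher side, at 0.04. EPHX1, the microsomal epoxide hydrolase, was at 6.04, 5.45 and 5.69 in endosulfan and 5.41, 5.51 and 5.62 in control arrays, with groups that overlapped. Its difference was 0.22, and it was 0.06 without endosulfan 1 and 0.36 without endosulfan 2. AKR1B10, a retinal reductase, and ALDH3A1, an aldehyde dehydrogenase under AHR control in other cells, were at -0.11 ± 0.13 and 0.06 ± 0.16 (differences with limma SE).

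The widest differences of the list were in the conjugation class, where 4 of 12 genes were on the lower side at an unadjusted p below 0.05 and 0 on the higher side, against 10.5% and 6.64% of all genes. The class median was -0.07, with 5 genes higher and 7 lower. GSTM3, a mu-class glutathione transferase of brain and testis, was at 9.47, 9.15 and 9.37 in endosulfan arrays, against 10.66, 9.74 and 10.33 in control arrays. All endosulfan arrays were lower, and control 2 stood closest to them. The difference was -0.91 ± 0.23 (SE), a 1.88-fold lower level, with a Benjamini-Hochberg adjusted p from limma of 0.196. The remaining probe sets of GSTM3 were dim, with differences of -0.17 and -0.02.
GSTA4, the alpha-class transferase for the lipid peroxidation product 4-hydroxynonenal, was at 7.27, 8.01 and 7.43 in endosulfan and 8.82, 8.06 and 8.17 in control arrays. The groups were separate by a small margin, since endosulfan 2 was nearly level with control 2. All 4 probe sets of GSTA4 were on the lower side, from -0.82 to -0.53, each at an unadjusted p below 0.05 with limma. On its dimmer probe sets the groups overlapped, with endosulfan 2 above control 2. For the brightest limma gave an adjusted p of 0.22 at gene level.
GSTK1, the mitochondrial and peroxisomal transferase, was at 8.63, 8.76 and 8.58 in endosulfan and 9.03, 9.05 and 9.22 in control arrays. Here control 2 stood with the other controls, and the difference of -0.45 ± 0.11 (SE), 1.36-fold lower, exceeded the spread within either group. The adjusted p was 0.196 with limma, and the dimmer probe sets of GSTK1 were at -0.13 and 0.01. GSTO1, the omega-class transferase that reduces methylated arsenic, was singled out after its values were seen. It was at 10.76, 10.86 and 10.79 in endosulfan and 11.23, 10.89 and 11.21 in control arrays, so that control 2 was nearly level with endosulfan 2.

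**Figure D3:**
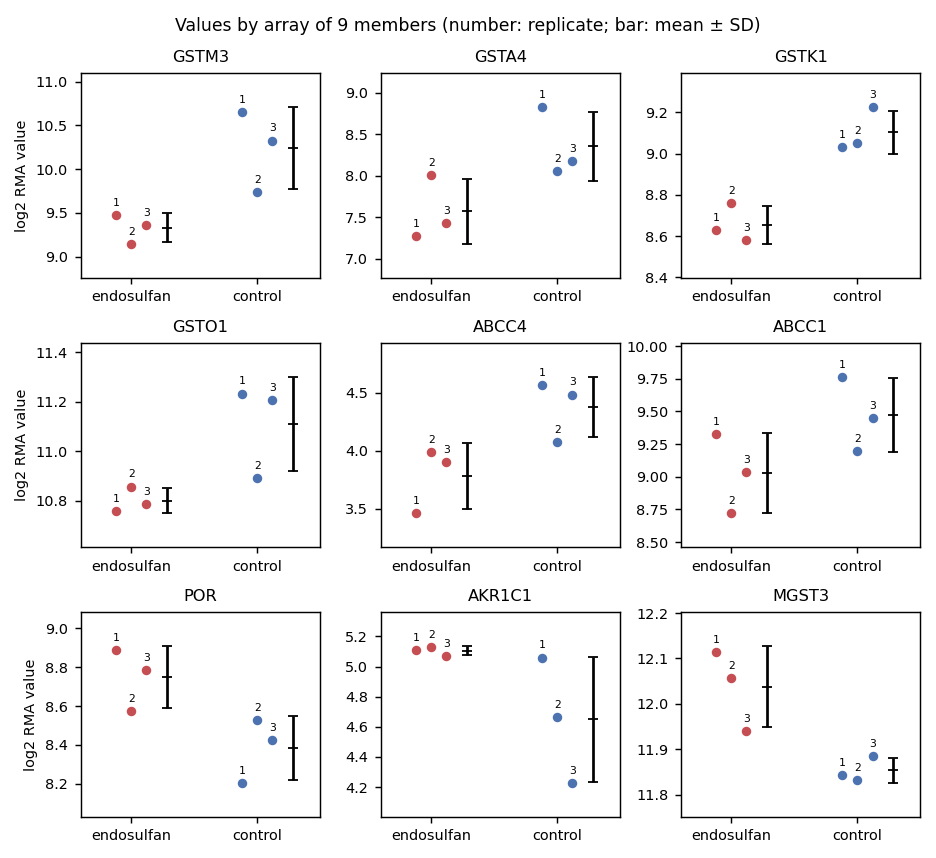
Log2 RMA values of 9 genes in each endosulfan and control array (numbers mark replicates), with the group mean and SD beside the points. GSTK1 shows separate groups with control 2 among the controls, whereas for GSTM3, GSTA4, GSTO1 and POR control 2 lies nearest to the endosulfan arrays.

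GSTP1 and MGST3 had slightly higher endosulfan than control means. GSTP1, the pi-class transferase that dominates many tumours and the brain, was at 13.27, 13.21 and 13.18 in endosulfan and 12.78, 13.24 and 13.14 in control arrays. Its groups overlapped, and the difference was 0.17, or 0.03 without control 1 and 0.26 without control 2. MGST3, a microsomal glutathione transferase and peroxidase, was at 12.11, 12.06 and 11.94 in endosulfan and 11.84, 11.83 and 11.88 in control arrays. The groups of MGST3 did not overlap, by a difference of 0.18 ± 0.10 (SE), its second probe set was at 0.23, and limma gave an adjusted p of 0.385.
The remaining conjugation genes had overlapping groups on their brightest probe sets. GSTT1, which conjugates small halogenated compounds, had a difference of 0.23, GSTM2 of 0.14, GSTM4 of 0.11 and GSTA1, the main hepatic alpha form, of -0.02. The microsomal transferases MGST1 and MGST2 were at -0.14 and -0.12. The dimmest probe set of MGST1 had the opposite sign, at 2.79, 2.88 and 2.81 in endosulfan and 2.48, 2.50 and 2.66 in control arrays. Its groups did not overlap, with a difference of 0.28 and an adjusted p from limma of 0.278 over all probe sets. For UGT1A6 and GSTM1 there were only probe sets shared with related genes. The brightest of those naming UGT1A6 averaged 5.68 in endosulfan and 5.57 in control arrays, and the one annotated to GSTM1 and GSTM4 averaged 7.55 and 7.53 in those groups.

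Among the 5 efflux pumps 2 were higher and 3 lower, with a median of -0.08 and no gene past the adjusted threshold. ABCC4, the multidrug resistance protein that also exports cyclic nucleotides, was at 3.46, 3.99 and 3.90 in endosulfan and 4.56, 4.08 and 4.48 in control arrays. Its groups did not overlap, though endosulfan 2 and control 2 were nearly level. The difference was -0.59 ± 0.19 (SE), with a Benjamini-Hochberg adjusted p from limma of 0.22, on a probe set that stayed below the background probe set with 18 G and C bases. The other 3 probe sets of ABCC4 were dimmer still and ran from -0.11 to 0.04.
ABCC1, the multidrug resistance protein linked to MYCN and chemoresistance in neuroblastoma, was at 9.33, 8.72 and 9.03 in endosulfan and 9.76, 9.20 and 9.45 in control arrays. Endosulfan 1 exceeded control 2, so the groups overlapped, and the difference was -0.44 ± 0.20 (SE) with a Benjamini-Hochberg adjusted p from limma of 0.300. A second probe set of ABCC1 was at -0.37 with groups that did not overlap, and the third, which was dim, at 0.13. The difference of the brightest was -0.29 without endosulfan 2 and -0.30 without control 1.
ABCC3, a basolateral exporter of glucuronides, was at 5.14, 4.96 and 5.34 in endosulfan and 4.90, 4.83 and 4.96 in control arrays. Its groups touched at endosulfan 2 and control 3, and the difference was 0.26 ± 0.13 (SE). ABCB1, the P-glycoprotein, was at 5.83, 5.64 and 5.88 in endosulfan and 5.49, 5.84 and 5.91 in control arrays. The brightest probe set of ABCB1 was at 0.04 and the other 3 between -0.32 and -0.07, so the probe sets of this gene differ in sign, and 2 of the dimmer ones, at -0.32 and -0.27, had groups that did not overlap. ABCG2, the breast cancer resistance protein, was at -0.08 ± 0.11 (difference with SE).

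A further list of 87 genes covered receptors, redox partners, other oxidases, reductases, conjugating enzymes and carriers of the same pathways. Of these 68 were measured and 0 passed, with 7 on the higher and 3 on the lower side at an unadjusted p below 0.05 with limma, where 6.64% and 10.5% of all genes were called. Their median difference was 0.09. The 6 genes with the smallest p had limma and Benjamini-Hochberg adjusted p from 0.196 to 0.253.
FDX1, the ferredoxin that feeds mitochondrial P450 enzymes, was at 8.72, 8.75 and 8.70 in endosulfan and 8.11, 8.12 and 7.74 in control arrays. All endosulfan arrays lay well above all controls, control 2 included, with a difference of 0.73 ± 0.13 (SE) on the brightest of its 3 probe sets, 1 of which was on the lower side. The carbonyl reductases CBR1 and CBR3 were at 0.49 and 0.58, again with groups that did not overlap. Of the 7 probe sets of CBR1, 1 was on the lower side, and CBR3 had 1 probe set.
NCOA1, a coactivator of nuclear receptors, was at 5.61, 5.82 and 6.05 in endosulfan and 7.01, 6.25 and 6.94 in control arrays, and its 6 probe sets were all on the lower side. The cyclic nucleotide exporter ABCC5 was at -0.69 on its brightest probe set, with 2 of its 4 probe sets higher, and the ergothioneine carrier SLC22A4 at 0.41. Of the P450 redox partners 5 of 7 were measured, all on the higher side with a median of 0.25, beside 60.2% and 0.05 over all genes. FDX1 was the 1 gene among them at an unadjusted p below 0.05 with limma. CYB5R3 was at 0.07, and 2 of the 4 probe sets of CYB5B were lower. This sublist was singled out after its values were seen, and no other sublist of the 87 genes had a higher median.

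Differences of the single genes depended on the arrays used and on the fit. With a term for the spike-in level in the fit, which leaves 1 residual degree of freedom fewer and whose mean was itself higher in the endosulfan arrays, the difference of GSTM3 was -0.48, of GSTA4 -0.45, of GSTK1 -0.34, of ABCC4 -0.36 and of POR 0.22. Over the 16 alternative settings the difference of GSTK1 ran from -0.59 to -0.19, of GSTM3 from -1.17 to -0.37 and of POR from 0.20 to 0.45, and none of these genes changed sign. With limma's array weights 15 of the 38 genes passed, 4 higher and 11 lower, where 32.6% of all genes passed in that setting.

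**Figure D4:**
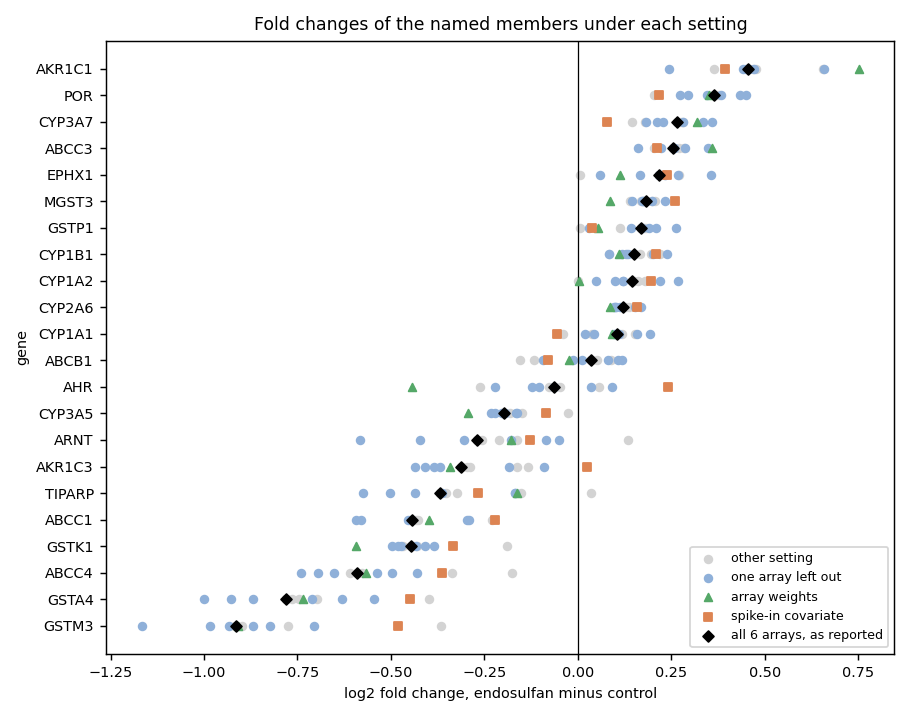
Log2 fold change (endosulfan minus control) of 22 genes under all settings tried, with black diamonds for the values reported from all 6 arrays. GSTM3, GSTA4, ABCC4 and GSTK1 stay left of 0 and POR and AKR1C1 right of 0 in every setting that kept them. AHR, CYP2A6, CYP3A7, AKR1C1 and ABCC4 were not above the median level, which left them 15 alternatives and not 16. AHR, ABCB1, ARNT, TIPARP, CYP1A1 and AKR1C3 cross 0 in some setting.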

How the data were processed

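RNA of 3 endosulfan and 3 control arrays was measured on an Affymetrix array. The authors deposited log2 values made with RMA in Affymetrix Expression Console, per the submitters' processing notes, and the number of arrays limits the precision. The table held 49395 rows with values from 1.95 to 14.39, and 102 array control probe sets were left out of the tests. Genes came from the platform annotation: 44988 probe sets named 1 gene, 1832 several and 2473 none.

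From these values limma 3.58.1 (lmFit and eBayes, R 4.3.3) was fitted to all 49293 probe sets, and separately to 18132 genes by their brightest one-gene probe set, with Benjamini-Hochberg adjustment over each whole table and a threshold of 0.05. The scripts were tested on simulated data. Single array measures were compared by two-sided exact permutation tests. Per-array values are given for AHR, CYP1A1 and CYP1B1, for the 3 genes of each class with the smallest p and the 2 with the highest level; of the 87 further genes the 6 with the smallest p are named. Values outside this rule were chosen after they were seen. Among these were the values of GSTO1, the array values of a dimmer probe set of CYP2B6 and of the dimmest of MGST1, and those of probe sets shared by several genes. The markers ISL1, STMN2 and GATA3 and the sublist of P450 redox partners were also chosen in this way. The members and lists were chosen with earlier results of these data known. Alternatives covered normalization, filtering, moderation, array weights, a spike-in covariate, a replicate block, the probe set rule and leaving out arrays. Promoters came from RefSeq (GRCh38.p14), which listed one for 33 of the 43 genes.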

Additional observations from a re-analysis of the deposited data

Results flagged for a closer look

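Probe sets annotated to several genes were outside the gene-level comparison, and 4 of the 21 that name a listed gene had every endosulfan array above every control array. One annotated to CYP2D6 and LOC101929829 averaged 6.94 in endosulfan and 6.81 in control arrays, a difference of 0.123. Of those naming the UGT1A genes, 3 had differences of 0.116, 0.138 and 0.135, with endosulfan means of 5.68, 5.66 and 3.25 and control means of 5.57, 5.52 and 3.11. None of the 4 passed the limma and Benjamini-Hochberg test, with adjusted p from 0.520 to 0.586, and groups did not overlap on the higher side in 11.5% of all probe sets. Background probe sets were higher in the endosulfan mean in 21 of 23 cases, by up to 0.10, and in 7 cases their groups did not overlap. The part of background levels in these differences was not tested.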

How the results depend on the processing

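No listed gene or probe set passed the adjusted threshold under any alternative except array weights, under which 20 probe sets and 15 genes passed, beside 14.4% of all probe sets and 32.6% of all genes. At an unadjusted p below 0.05 the probe set counts were 6 higher and 11 lower, beside 6.3% and 9.21% of all probe sets. Brackets below give the same shares under each setting. The counts became 16 and 18 with array weights (17.4% and 15.3%) and 0 and 0 with the spike-in covariate (0.893% and 1.14%). They were 2 and 6 of the 44 above the median level (6.66% and 12.7%), and 2 and 5 without both arrays numbered 1 (3.52% and 4.94%). With no moderation 4 were lower (4.6%). The gene counts were 1 higher and 5 lower, beside 6.64% and 10.5% of all genes. They became 5 and 12 with array weights (23.4% and 21.2%) and 0 and 0 with the covariate (0.761% and 0.871%). Averaging the probe sets of a gene gave 3 and 3 (7.79% and 9.08%), and further quantile normalization 2 higher (7.3%). Of the 25 genes above the median level 3 were lower (13.2%). There were also 3 lower with no moderation (5.12%) and without both arrays numbered 1 (5.48%). Leaving out 1 array gave 0 to 7 probe sets higher and 4 to 12 lower, and 0 to 3 genes higher and 3 to 6 lower. Over all probe sets the shares then ran from 3.22% to 8.71% higher and from 5.64% to 11.5% lower. Over all genes they ran from 3.04% to 10.1% higher and from 5.88% to 13.6% lower. Endosulfan 1, 2 and 3 and control 1 and 3 each moved at least 1 of the list's counts by over 1.5 times, and without control 2 none did. The causes were not tested.

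After group means were taken off, arrays of the same replicate number had correlations of -0.51, -0.40 and 0.05 for numbers 1, 2 and 3. With 1 pair a number these values cannot show whether the arrays were paired. With the number as a block there were 0 probe sets higher and 7 lower at an unadjusted p below 0.05, beside 3.24% and 6.23% of all probe sets. By gene 0 were higher and 5 lower, beside 3.18% and 6.62% of all genes.

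The AHR axis median was 0.149 after quantile normalization, -0.001 with array weights, 0.034 without both arrays numbered 1, and 0.02 to 0.11 leaving out 1 array. The CYP2 and CYP3 median was -0.197 above the median level, where CYP3A5 alone remained. The median of POR and the oxidoreductases was 0.142 with the mean of probe sets and 0.035 to 0.187 leaving out 1 array. Conjugation was at -0.137 with array weights, 0.001 with the covariate, 0.018 with the mean of probe sets and -0.091 to 0.042 leaving out 1 array. Efflux pumps were at 0.036 above the median level, -0.233 with array weights and -0.135 to -0.012 leaving out 1 array.

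Of 22 genes named by rule, 16 kept their sign in every setting that kept them. For CYP2A6, CYP3A7, AKR1C1 and ABCC4, which were not above the median level, these were 15 alternatives. AHR was at 0.241 with the covariate, 0.057 with the mean of probe sets and -0.221 to 0.091 leaving out 1 array. ABCB1 was at -0.024 with array weights, -0.08 with the covariate, -0.118 without both arrays numbered 1, -0.156 with the mean of probe sets and -0.094 to 0.119 leaving out 1 array. Without both arrays numbered 1, ARNT was at 0.134, TIPARP at 0.034 and CYP1A1 at -0.04. With the covariate CYP1A1 was at -0.056 and AKR1C3 at 0.025.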
